A study of Mus musculus with 21 samples.

Results

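The 10 genes described here are the metalloproteases Mmp9, Mmp12, Mmp14, Mmp25, Adam8, Adam19 and Adam23 and the tissue inhibitors of metalloproteases Timp1, Timp2 and Timp3, out of 37734 genes in the deposited tables. They were taken by gene name and had been chosen by their mean normalized read counts over the 6 groups of these same samples, so their levels and folds are given as a description, with no test. The data were RNAseq values of conventional dendritic cells (cDCs) that were FACS-sorted from spleen and thymus of C57BL/6 mice aged 6 to 8 weeks after enrichment on CD11c beads, and the labels name no treatment and no altered gene in any group. Immature CCR7-Esam- cells gave splenic cDC1 (SP1Minus, n = 4), splenic cDC2 (SP2Minus, n = 3), thymic cDC1 (TH1Minus, n = 4) and thymic cDC2 (TH2Minus, n = 3), and mature CCR7+Esam+ cells gave thymic cDC1 (TH1Plus, n = 3) and thymic cDC2 (TH2Plus, n = 3). The cDC1 gate was CD24+CD11b-CD11c+ and left out cells with F4/80, Ly6g, Ly6c, DX5 or B220, whereas the labels give the cDC2 gate only as CD24-CD11b+CD11c+ without B220. The study's methods list an F4/80 antibody in the DC sort, and its text on NOD mice describes both cDC subsets as F4/80-negative. Each sample was a pool of cells of several mice, and whether replicates came from separate sorts is not stated, so p values measure the spread between these samples, which may be technical. Immature thymic cells were compared with immature splenic cells, mature thymic cells with immature thymic cells, and cDC2 with cDC1.

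Matrix metalloproteases (MMPs) and ADAMs are zinc-dependent proteases that are made as inactive precursors. MMPs cut matrix proteins and are secreted or held at the membrane, whereas ADAMs are transmembrane proteins that shed the outer part of cytokines, chemokines, adhesion molecules and their receptors, and some ADAMs have lost the catalytic site and work in adhesion. TIMPs are secreted inhibitors that block the active site. Dendritic cells use such proteases when they cross matrix and when they trim their own surface during maturation and migration.

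The libraries held 14266867 to 40119669 reads counted to genes, and all values are normalized read counts, that is reads divided by the size factor of the library, with 1 read being worth 0.625 to 1.84 units. Among the libraries, 2 of splenic cDC1 (replicates 4 and 5) shared number, index and lane and differed far less than other pairs of their group (chi-square per degree of freedom 2.53 against 26.9 to 190.4), so they entered as 1 sample, given as replicate 4. Splenic cDC1 replicate 1 carried the same number but came from lane 5, and TH1Minus replicates 3 and 4 also shared number, index and lane. These were kept as separate samples, and whether they are independent is not known. Lanes were not balanced over the groups. All mature libraries came from lane 8. Lane 5 held 2 of the 5 SP1Minus, 2 of the 3 SP2Minus, 1 of the 4 TH1Minus and 1 of the 3 TH2Minus libraries. Organ and maturation thus differed in part together with lane. The immature subsets carried their markers, whereas in mature thymic cDC2 the sums of the 2 marker lists overlapped. The sum of 6 cDC1 markers was 89379 to 98290.2 in SP1Minus and 94682 to 103347 in TH1Minus, against 3211 to 4634 in SP2Minus and 4354 to 7343 in TH2Minus. That of 5 cDC2 markers was 27141 to 36496 in SP2Minus and 46381 to 47059.5 in TH2Minus, against 1985 to 3011 and 495 to 854 in SP1Minus and TH1Minus. In TH1Plus the cDC1 markers summed to 43108 to 47586 and the cDC2 markers to 2113 to 3616. In TH2Plus the cDC1 markers summed to 16974 to 24346 and the cDC2 markers to 14049 to 18002. Such sums are set by the most abundant genes. By limma at adjusted p below 0.1 and over 2-fold, 4 of the 6 cDC1 markers were lower and 0 higher in TH2Plus than in TH1Plus. All 5 cDC2 markers were higher there. Against TH2Minus, 2 of the 6 cDC1 markers were higher and 2 lower in TH2Plus. Of the 5 cDC2 markers 0 were higher and 4 lower. Ccr7 was 110227 ± 18494 (SD, n = 3) in TH1Plus and 99928 ± 13553 (SD, n = 3) in TH2Plus, against means of 434 to 3782 in the immature groups. Itgam, which encodes the CD11b of the cDC2 gate, was only 20.4 ± 15.4 (SD, n = 3) in TH2Plus and listed at 0 in all 3 TH1Plus samples.

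**Figure D1:**
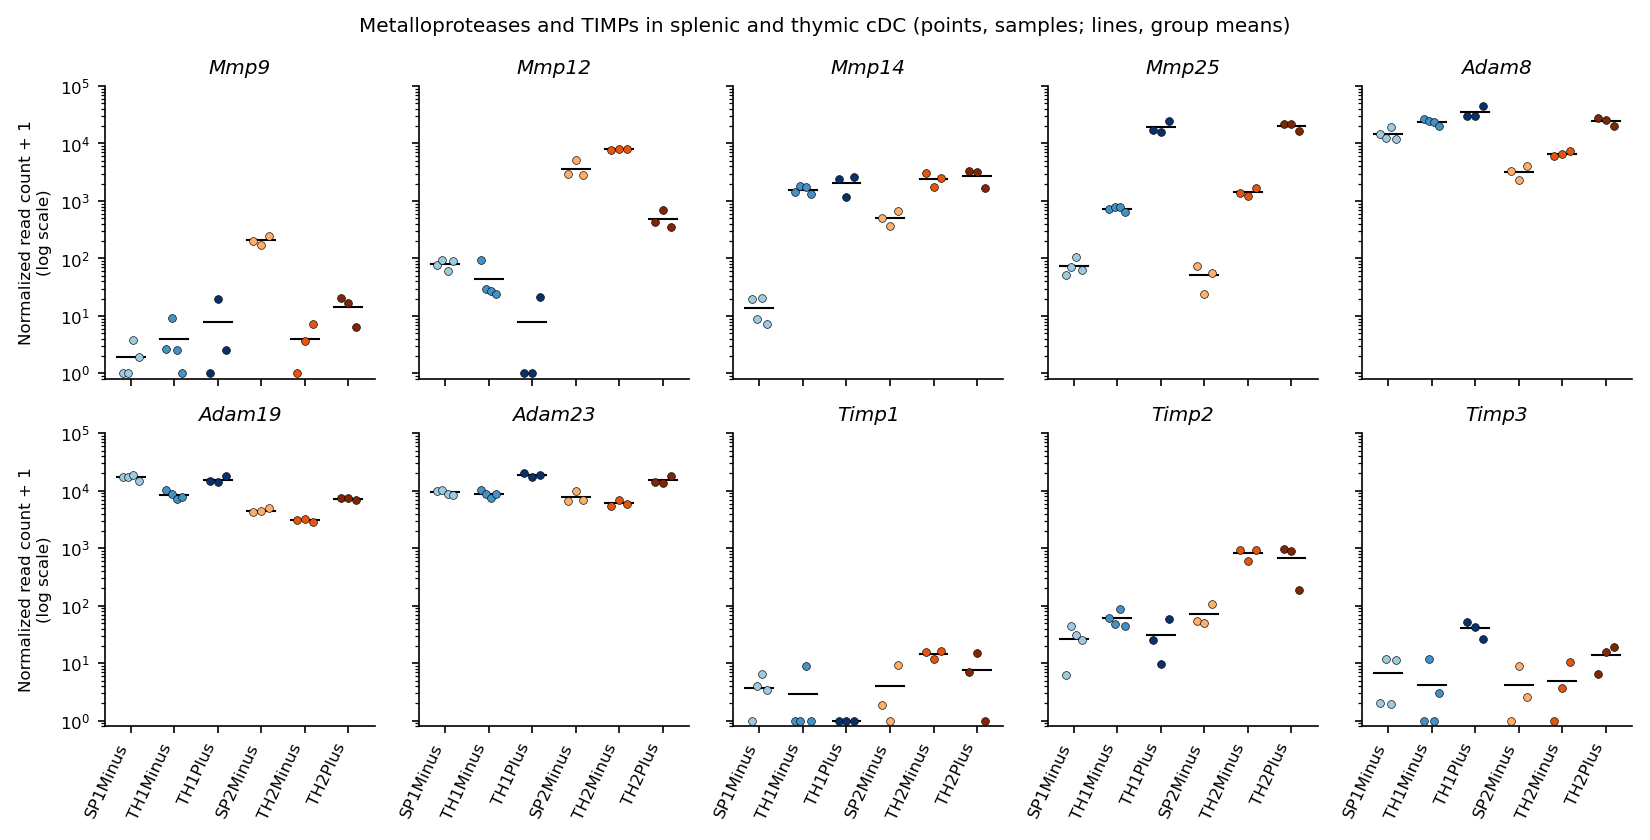
Normalized read count plus 1 (log scale) of the 10 genes in the 20 samples of the 6 groups. Points are samples and lines are group means. Mmp25 stands between 15569.5 and 24507 in every mature sample, Mmp12 between 2816 and 7953 in every immature cDC2 sample, and Mmp14 between 6.27 and 19.4 in the splenic cDC1 samples alone.

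Mmp9, the secreted gelatinase B (gene at chr2:164940780-164955850, plus strand), stood above 20 in immature splenic cDC2 alone. Its values in SP2Minus were 201, 171 and 248. In SP1Minus they were 0, 0, 2.77 and 0.969, in TH1Minus 1.69, 8.33, 1.56 and 0, in TH2Minus 0, 2.68 and 6.23, in TH1Plus 0, 19.1 and 1.60 and in TH2Plus 19.2, 16.01 and 5.49. Every SP2Minus sample thus lay above every other sample, and the other 5 groups overlapped with their neighbours in the order of levels. The SP2Minus mean of 207 ± 38.8 (SD, n = 3) was 69.5-fold higher than that of TH2Minus, and 154-fold higher without TH2Minus replicate 3, the TH2Minus libraries holding 0, 4 and 4 reads. It was at least 82.9-fold higher than SP1Minus, where no library held more than 3 reads. Mmp9 is also a neutrophil gene. The sum of 10 neutrophil markers was 1076 to 1781 in SP2Minus against 408 to 497 in TH2Minus and 33.8 to 68.97 in SP1Minus. In SP2Minus 2 of these 10 had a mean of at least 10, namely Csf3r at 1312 ± 282 (SD, n = 3) and Mpo at 104 ± 69.00 (SD, n = 3), whereas S100a8, S100a9, Ly6g, Elane, Camp and Retnlg had no read in any of its libraries. Their part in the level of Mmp9 was not tested. In sorted bulk samples such as these, fewer cells of a type and less RNA per cell cannot be told apart.

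Mmp12, the macrophage elastase (gene at chr9:7344381-7369499, plus strand), was highest in immature cDC2 of both organs. It was 2941, 5063 and 2816 in SP2Minus and 7770.1, 7901 and 7953 in TH2Minus, so the thymic samples all lay above the splenic ones. In mature thymic cDC2 it was 432, 690.4 and 350.1, 16.04-fold below the immature mean, with no overlap. The cDC1 samples held little of it, namely 77.2, 91.7, 60.03 and 90.8 in SP1Minus, 92.1, 28.3, 26.5 and 23.2 in TH1Minus and 0, 0 and 20.8 in TH1Plus. In that subset too the mature samples lay below the immature ones, with a log2 fold change of -3.72 (SE 0.73) against -4.06 (SE 0.78) in cDC2. TH2Minus exceeded TH1Minus 185-fold, or 303-fold without TH1Minus replicate 1, and SP2Minus exceeded SP1Minus 45.1-fold. The TH1Minus sample at 92.1 was the only one from lane 5, and without it and the other lane 5 libraries the thymus to spleen difference in cDC1 was -1.47 on the log2 scale in place of -1.12. Mmp12 shares 157 exonic bases with Mmp1b on the opposite strand, but Mmp1b was listed at 0 in every sample.

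Among the membrane-held MMPs, Mmp14 and Mmp25 both had more reads in thymic than in splenic cells. Mmp14 encodes a transmembrane collagenase that also activates the Mmp2 precursor (gene at chr14:54431612-54445364, plus strand). It was 18.5, 7.89, 19.4 and 6.27 in SP1Minus and 1430.2, 1796, 1727 and 1331 in TH1Minus, a difference of 121-fold between the means. In cDC2 it was 512, 364 and 666 in the spleen and 3043, 1739.6 and 2544 in the thymus, a 4.75-fold difference. The splenic and thymic samples did not overlap in either subset. Mature samples overlapped with immature ones, with 2455, 1152 and 2604 in TH1Plus and 3362, 3156 and 1653 in TH2Plus. The log2 fold change with maturation was 0.32 (SE 0.37) in cDC1 and 0.13 (SE 0.39) in cDC2, the latter -0.18 when scaled to total reads. In the spleen alone, cDC2 exceeded cDC1 by 39.5-fold, whereas the thymic subsets overlapped. Whether the tissue difference itself differs between the subsets was not tested.

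Mmp25, a GPI-anchored protease best known from neutrophils (gene at chr17:23628311-23645277, minus strand), differed both between organs and with maturation. Immature splenic samples held 50.4, 69.04, 106 and 61.98 in cDC1 and 73.2, 23.1 and 53.8 in cDC2, and these groups overlapped. Immature thymic samples held 728, 782, 793 and 631 in cDC1 and 1360.0, 1239 and 1699 in cDC2. Mature thymic samples held 17192, 15569.5 and 24507 in cDC1 and 22212, 21482 and 16216 in cDC2, and again the subsets overlapped. From spleen to thymus the mean was 10.2-fold higher in cDC1 and 28.6-fold higher in cDC2, and from immature to mature it was 26.03-fold and 13.9-fold higher. No splenic sample reached the lowest immature thymic sample and no immature sample reached the lowest mature one. On the log2 scale the maturation differences were 4.68 (SE 0.29) in cDC1 and 3.80 (SE 0.31) in cDC2.

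Adam8, Adam19 and Adam23 stood at 2280.4 or more in every sample. Adam8 is a catalytically active ADAM of myeloid cells (gene at chr7:139978932-139992562, minus strand). In cDC1 it was 14571, 12253, 19572 and 11749.6 in SP1Minus, 26317, 24981, 23665 and 20266 in TH1Minus and 30222, 29881 and 44344 in TH1Plus, 3 groups without overlap. In cDC2 it was 3382, 2280.4 and 4082 in SP2Minus, 5981, 6514 and 7425 in TH2Minus and 28053, 26085 and 20144 in TH2Plus, again without overlap. The order spleen, thymus, mature thymus was thus the same in each subset, and cDC1 lay above cDC2 at each step. The gap between subsets was 4.48-fold in the spleen, 3.59-fold in the immature thymic cells and 1.41-fold in the mature ones. The log2 fold change with maturation was 1.89 (SE 0.23) in cDC2 and 0.53 (SE 0.21) in cDC1. That from spleen to thymus was 0.74 (SE 0.20) in cDC1 and 1.07 (SE 0.23) in cDC2, the latter 0.77 with lane 8 libraries only and 0.83 without SP2Minus replicate 2. Adam8 shares 46 exonic bases with the opposite-strand transcript Gm16201, whose highest value in any sample was 349.5.

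Adam19, known for shedding neuregulin (gene at chr11:46055992-46147343, plus strand), went the other way between organs. It was 17359, 17602, 18630.5 and 14730.5 in SP1Minus and 10123, 8694, 7272 and 7727 in TH1Minus, 2.02-fold lower in the thymus. In cDC2 the values were 4256, 4385 and 4969.9 in SP2Minus and 3062, 3201 and 2914 in TH2Minus, 1.48-fold lower in the thymus. Neither pair overlapped. Mature cells were higher than immature thymic cells, at 14526, 14457 and 17864 in TH1Plus and 7395, 7589 and 6912 in TH2Plus, and the TH1Plus samples overlapped with SP1Minus. Each cDC1 group lay above the cDC2 group of the same organ and stage, by 3.76-fold, 2.76-fold and 2.14-fold for splenic, immature thymic and mature thymic cells.

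Adam23, an ADAM without a working catalytic site that binds integrins and LGI proteins (gene at chr1:63445891-63596276, plus strand), had the smallest ratio of highest to lowest group mean of the 10 among immature cells, with means of 6159 to 9347. Its values were 9965, 10238, 8885 and 8298 in SP1Minus, 10209, 8742, 7605 and 8877 in TH1Minus, 6776, 9983 and 7048 in SP2Minus and 5541, 6952 and 5984 in TH2Minus, and each of these groups overlapped with the next in order. Mature samples lay above all of them, at 20648, 17481 and 18857 in TH1Plus and 14415, 13585 and 17973 in TH2Plus. The maturation difference was 2.14-fold in cDC1 and 2.49-fold in cDC2. Scaled to total reads instead of the deposited size factors, the log2 fold change in cDC1 was 0.81 in place of 1.10, and the median of all genes tested shifted by -0.32 in that comparison.

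**Figure D2:**
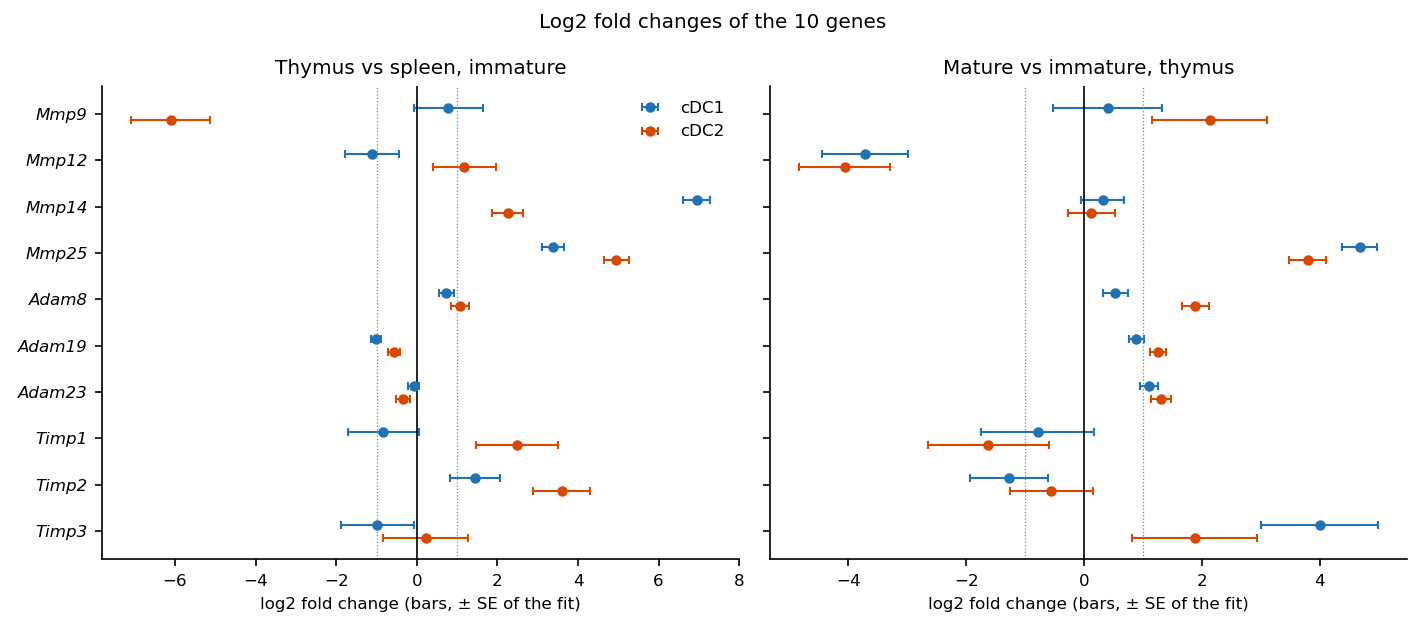
Log2 fold changes of the 10 genes, with bars for ± 1 SE of the fit, for thymic against splenic immature cells and for mature against immature thymic cells, in cDC1 (blue) and cDC2 (orange). Dotted lines mark a 2-fold change. Mmp14 stands at 6.94 in cDC1 and 2.25 in cDC2 on the left and near 0 on the right, whereas Mmp25 is to the right of the dotted line in all 4 comparisons.

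The inhibitors were read far less than the ADAMs. Timp1, which blocks most MMPs (gene at chrX:20870166-20874735, plus strand), stayed under 16 in every sample. Its values were 0, 2.96, 5.54 and 2.41 in SP1Minus, 0, 0, 7.80 and 0 in TH1Minus, 0.915, 0 and 8.15 in SP2Minus, 14.9, 10.7 and 15.6 in TH2Minus and 6.14, 13.9 and 0 in TH2Plus, and it was listed at 0 in all 3 TH1Plus samples. All 3 TH2Minus samples lay above every sample of the other immature groups. With lane 8 libraries only, the thymus to spleen difference in cDC2 was 0.61 on the log2 scale in place of 2.49. Timp1 lies inside Syn1 on the opposite strand with no shared exonic base.

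Timp2, which inhibits MMPs and is also a partner of Mmp14 in the activation of Mmp2 (gene at chr11:118301069-118355740, minus strand), was highest in thymic cDC2. It was 938, 595 and 921 in TH2Minus against 53.1, 49.98 and 106 in SP2Minus, 11.7-fold higher with no overlap. The cDC1 samples held 5.15, 43.4, 29.6 and 24.1 in SP1Minus, 59.98, 47.5, 85.8 and 43.5 in TH1Minus and 23.96, 8.67 and 56.8 in TH1Plus. In TH2Plus the values were 969.6, 894 and 187, so replicate 3 lay far below the other two. The log2 fold change from TH2Minus to TH2Plus was -0.55 (SE 0.71), and 0.22 without TH2Plus replicate 3. Markers of macrophages were read in the same samples. The sum of 10 such markers was 16337 to 25878 in SP2Minus and 19986 to 25840.3 in TH2Minus, where Csf1r alone had means of 14582 and 13161. The sum overlapped between these groups, while by limma at adjusted p below 0.1 and over 2-fold 4 of the 10 markers were higher in TH2Minus and 0 lower. The same sum was 21299.7 and 22623 in TH2Plus replicates 1 and 2 and 6339 in replicate 3. C1qa, which encodes a chain of complement C1q, was 444, 251 and 385 in SP2Minus, 2797, 1614 and 2456 in TH2Minus and 4196, 4445 and 532 in TH2Plus. It does not stand for the whole list. By the same rule 1 of the 10 markers was higher and 4 were lower in TH2Plus than in TH2Minus. Vcam1 was 3587, 3978 and 3483 in TH2Plus, so it was not low in replicate 3 and made up much of the sum there. Adgre1, which encodes F4/80, was 4534 ± 368 (SD, n = 3) in SP2Minus, 1874 ± 144 (SD, n = 3) in TH2Minus and 834 ± 276 (SD, n = 3) in TH2Plus. The labels do not say that F4/80-positive cells were left out of the cDC2 gate. All 10 markers had a mean of at least 10 in SP2Minus and TH2Minus and none was at 0. Their part in the levels of Timp2 and of Mmp12 was not tested.

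**Figure D3:**
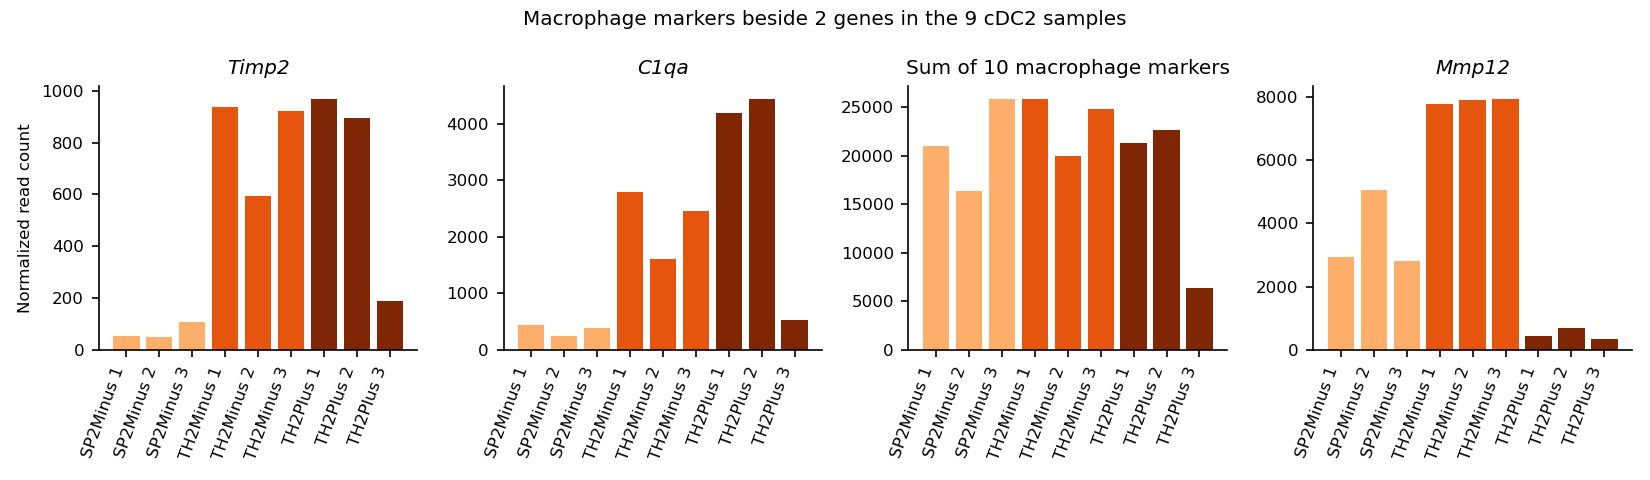
Normalized read counts of Timp2, C1qa, the sum of 10 macrophage markers and Mmp12 in the 9 cDC2 samples, 1 bar per sample. TH2Plus replicate 3 stands at 187 for Timp2 and 532 for C1qa, below the other 2 mature samples, whereas Mmp12 is at 350.1 to 690.4 in all 3.

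Timp3, a matrix-bound inhibitor that also blocks several ADAMs (gene at chr10:86300372-86349506, plus strand), was highest in mature cDC1. It was 51.6, 41.6 and 25.6 in TH1Plus against 0, 10.8, 0 and 2.02 in TH1Minus, a log2 fold change of 4.00 (SE 0.99). TH2Plus held 5.37, 14.6 and 18.1, all below the lowest TH1Plus sample, and the splenic and immature thymic samples reached at most 10.8. Timp3 lies inside Syn3 on the opposite strand and shares 1733 exonic bases with it. Syn3 was at 0 in the immature splenic and TH1Minus samples, on average 2.63 in TH2Minus, 29.5 to 69.3 in TH1Plus and 146 to 165 in TH2Plus. Since the strand setting of the counting is not given in the sources used here, the reads of Timp3 are uncertain. Of other cells that make TIMPs, fibroblasts and stroma were read through 7 markers, which summed to at most 66.6 in any sample. In TH1Plus replicates 1, 2 and 3 they summed to 0, 46.8 and 59.97. There 1 of the 7 had a mean of at least 10, whereas Pdgfra, Pdgfrb and Lum had no read. Their part in the level of Timp3 was not tested.

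Per kilobase of exonic length, a scale on which genes can be ranked within a group, Adam8 was the highest of the 10 in all 6 groups. It stood at 7507 normalized reads per kilobase in TH1Plus, where Mmp25 followed with 3599.7 and Adam19 with 2195. In TH2Plus the values were 5339 for Adam8 and 3766 for Mmp25. In TH2Minus Mmp12 came next after Adam8, at 1088 against 1432. In the splenic groups Adam19 came next, at 2401 in SP1Minus and 638 in SP2Minus. On this scale the highest inhibitor in any group was Timp2 in TH2Minus, at 209.9, where Mmp14 stood at 409.8.

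By the rule that counts a gene as changed (limma, adjusted p below 0.1 and over 2-fold, 14970 genes tested), the counts for the 10 genes only restate the choice of genes, and nothing is read from them. Thymic against splenic cDC1 gave 2 higher and 1 lower, where 4.26% and 4.52% of all genes tested passed in these directions. Thymic against splenic cDC2 gave 5 higher and 1 lower, where 8.30% and 5.87% of all genes tested passed in these directions. Mature against immature thymic cDC1 gave 3 higher and 1 lower, where 21.3% and 24.5% of all genes tested passed in these directions. Mature against immature thymic cDC2 gave 5 higher and 1 lower, where 18.6% and 17.0% of all genes tested passed in these directions. Splenic cDC2 against cDC1 gave 4 higher and 2 lower, where 9.93% and 6.70% of all genes tested passed in these directions. Immature thymic cDC2 against cDC1 gave 3 higher and 2 lower, where 11.0% and 5.42% of all genes tested passed in these directions. Mature thymic cDC2 against cDC1 gave 2 higher and 1 lower, where 14.6% and 4.36% of all genes tested passed in these directions. Groups without overlap, in either direction, were found for 5 of the 10 genes in the cDC1 organ comparison (all genes 17.8%) and 8 of the 10 genes in the cDC2 organ comparison (all genes 39.3%). They were found for 6 and 5 in the maturation of cDC1 and cDC2 (all genes 55.3% and 60.0%). Between subsets they were found for 6, 7 and 5 in splenic, immature thymic and mature thymic cells (all genes 31.6%, 34.8% and 32.8%). These comparisons share samples, TH1Minus and TH2Minus being in 3 of them each, so they are not independent of each other.

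Upstream windows are shown for 3 genes that were higher in mature cells of each subset (Mmp25, Adam8 and Adam23) and for Mmp12, which was lower there. Adam19 was also higher there but has 3 listed starts and is not printed. RefSeq (GRCm38.p6, the mm10 assembly) gave a window for 9 of the 10 genes, all but Mmp9, and the 250 bases before the start are printed 5′ to 3′ in the direction of the gene, with matches to 4 motifs in capitals. The motifs were AP-1 (TGANTCA), the NF-kB consensus, the PU.1-IRF composite and RBPJ (TGGGAA), searched on both strands.
Mmp25, chr17:23645270-23645519, minus strand: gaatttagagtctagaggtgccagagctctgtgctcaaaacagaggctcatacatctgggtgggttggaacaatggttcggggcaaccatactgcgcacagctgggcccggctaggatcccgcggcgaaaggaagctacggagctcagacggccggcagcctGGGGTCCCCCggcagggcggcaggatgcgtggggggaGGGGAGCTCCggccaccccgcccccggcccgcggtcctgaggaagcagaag
Adam8, chr7:139992563-139992812, minus strand: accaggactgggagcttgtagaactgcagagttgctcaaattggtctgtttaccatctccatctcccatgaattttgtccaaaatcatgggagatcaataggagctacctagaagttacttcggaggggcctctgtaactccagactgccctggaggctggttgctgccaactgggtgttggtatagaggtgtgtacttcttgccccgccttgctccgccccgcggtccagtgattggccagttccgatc
Adam23, chr1:63445641-63445890, plus strand: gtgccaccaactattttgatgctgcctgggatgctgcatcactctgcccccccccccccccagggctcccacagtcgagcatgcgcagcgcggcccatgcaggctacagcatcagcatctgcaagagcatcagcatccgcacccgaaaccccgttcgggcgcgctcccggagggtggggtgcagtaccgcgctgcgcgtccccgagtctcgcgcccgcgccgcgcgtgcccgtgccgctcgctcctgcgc
Mmp12, chr9:7344147-7344396, plus strand: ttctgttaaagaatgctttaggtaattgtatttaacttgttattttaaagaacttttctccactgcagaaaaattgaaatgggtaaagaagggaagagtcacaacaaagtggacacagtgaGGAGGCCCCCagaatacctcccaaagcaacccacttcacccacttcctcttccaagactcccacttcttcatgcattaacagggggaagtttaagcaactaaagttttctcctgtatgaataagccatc
The Mmp25 window held 2 NF-kB matches, GGGGTCCCCC and GGGGAGCTCC, beginning 88 and 51 bases before the start. That of Mmp12 held 1, GGAGGCCCCC, beginning 129 bases before the start that RefSeq lists at the lower coordinate. The windows of Adam8 and Adam23 held no match to these letters. Of all 32851 windows of this length, 7.25% held an NF-kB match, 6.75% an AP-1 match, 2.30% a PU.1-IRF match and 21.6% an RBPJ match. The Mmp14 window held the PU.1-IRF letters GGAAGAGAAA beginning 208 bases before the start, that of Timp1 the RBPJ letters at 158 bases, and 1 of the 3 Adam19 windows an AP-1 and 2 overlapping NF-kB matches. A window at the other Mmp12 start held an AP-1 match 44 bases before it, and those of Timp2 and Timp3 held none. GC content was 70.4% in Adam23, 66% in Mmp25, 52.8% in Adam8 and 40% in Mmp12, where the median window had 52.4%, and the number of CpG was 27, 17, 6 and 0. Such matches describe the letters and say nothing about binding.

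The wider family held 86 genes by nomenclature, of which 41 could be tested, 31 of them outside the 10 described so far. Several of these 31 changed with maturation in each subset. Mmp7, the smallest of the MMPs, known as matrilysin, rose from at most 3 reads in any immature thymic library to 112, 133 and 139 in TH1Plus (adjusted p = 2.24e-08) and 210.4, 224 and 344 in TH2Plus (adjusted p = 3.33e-09), at least 40.3-fold and 78.7-fold higher. Mmp23, a membrane-anchored MMP, rose from 22.9 ± 8.64 (SD, n = 4) in immature to 1360.1 ± 142 (SD, n = 3) in mature cDC1, a log2 fold change of 5.92 (SE 0.61, adjusted p = 5.25e-08). In cDC2 it rose from 25.4 ± 3.49 (SD, n = 3) in TH2Minus to 1395 ± 273 (SD, n = 3) in TH2Plus, of 5.71 (SE 0.65, adjusted p = 4.25e-07). Mmp28, the secreted epilysin, fell from 479 ± 68.6 (SD, n = 4) in immature to 1.64 ± 1.60 (SD, n = 3) in mature cDC1 (adjusted p = 3.13e-11) and from 99.5 ± 9.74 (SD, n = 3) in immature to 1.51 ± 2.05 (SD, n = 3) in mature cDC2 (adjusted p = 2.1e-08). Of the 31 genes, 11 higher and 5 lower passed in cDC1 and 13 higher and 5 lower in cDC2, with median log2 fold changes of 0.55 and 0.75 against -0.04 and 0.04 over all genes tested.

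Adam11 and Adam22, close relatives of Adam23 that also lack a working catalytic site, were higher in mature than in immature thymic cells. Adam11 was 1311, 1257, 997 and 1167 in TH1Minus and 20006, 17273 and 22089 in TH1Plus, a log2 fold change of 4.06 (SE 0.29, adjusted p = 2.77e-10). In cDC2 it was 6255, 7821 and 7385 in TH2Minus and 32622, 26577 and 23165 in TH2Plus, a log2 fold change of 1.93 (SE 0.31, adjusted p = 3.66e-05). Adam22 rose from 449 ± 95.4 (SD, n = 4) in immature to 1320.4 ± 219.6 (SD, n = 3) in mature cDC1 (adjusted p = 9.05e-07) and from 141 ± 20.2 (SD, n = 3) in immature to 1022 ± 140.0 (SD, n = 3) in mature cDC2 (adjusted p = 1.03e-09). Immature splenic cells had Adam22 means of 822 in cDC1 and 1378 in cDC2, the latter above that of mature thymic cDC2. Of the main sheddases, Adam10 had means of 1989.5 to 5137 and Adam17 of 2648 to 4365 over the 6 groups. Adam9, likewise a sheddase, had means of 683 to 1316. None of these 3 passed in any of the 7 comparisons, as none changed over 2-fold. Below that cut, Adam10 was higher in mature cells without overlap. Its log2 fold change was 0.802 in cDC1 (adjusted p = 0.00186) and 0.754 in cDC2 (adjusted p = 0.00667). In cDC1 Adam9 was also higher, by 0.55 (adjusted p = 0.011), and Adam17 lower, at -0.39 with overlap (adjusted p = 0.0422). In cDC2 their adjusted p values were 0.468 and 0.241. Reck, a membrane-anchored inhibitor of MMPs, rose from 18.2 ± 0.553 (SD, n = 4) in immature to 192 ± 39.7 (SD, n = 3) in mature cDC1 (adjusted p = 2.41e-06) and from 22.00 ± 8.07 (SD, n = 3) in immature to 82.9 ± 10.5 (SD, n = 3) in mature cDC2 (adjusted p = 0.00248). Adamtsl4, a secreted protein related to ADAMTS proteases, rose from 10.8 to 397 (adjusted p = 6.93e-08) and from 78.5 to 680.1 (adjusted p = 0.000461). The protease Adamts10 fell from 643 to 98.01 (adjusted p = 2.6e-08) and from 1217 to 286 (adjusted p = 4.85e-06).

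**Figure D4:**
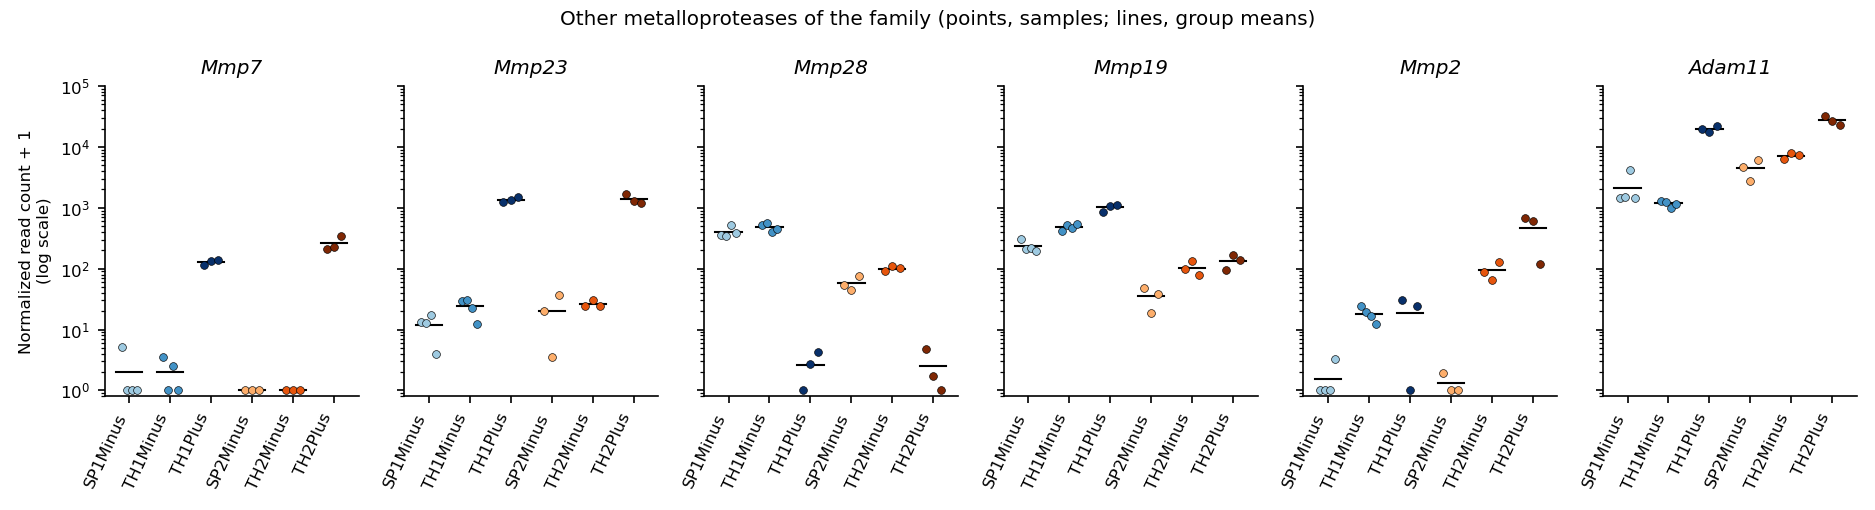
Normalized read count plus 1 (log scale) of 6 other metalloproteases in the 20 samples of the 6 groups. Points are samples and lines are group means. Mmp7 and Mmp23 are high only in the mature groups, Mmp28 is under 4 there, and Mmp2 reaches 678 in TH2Plus with replicate 3 at 118.

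Between organs, 2 higher and 3 lower of the 31 genes passed in cDC1 and 4 higher and 3 lower in cDC2, 16.1% and 22.6% of them, against 8.77% and 14.2% of all genes. Mmp2, the gelatinase that Mmp14 and Timp2 help to activate, was near 0 in the spleen and rose to 23.7, 18.3, 15.6 and 11.1 in TH1Minus (adjusted p = 0.00379) and 87.5, 64.95 and 128 in TH2Minus (adjusted p = 8e-05), in cDC2 at least 29.5-fold higher. The cDC1 difference had an adjusted p of 0.211 with lane 8 libraries only. In TH2Plus Mmp2 was 678, 617 and 118, with the same replicate low as for Timp2. The log2 fold change from TH2Minus was 2.02 (SE 0.96, adjusted p = 0.0925), and the adjusted p lay at 0.110 to 0.265 when any of 5 of the 6 samples was left out. Mmp19 was higher in the thymus in cDC1, at 485 ± 59.8 (SD, n = 4) against 234 ± 49.4 (SD, n = 4) (adjusted p = 0.0121, the change being 0.99 on the log2 scale without SP1Minus replicate 4), and in cDC2, at 101 ± 28.2 (SD, n = 3) against 33.9 ± 14.9 (SD, n = 3) (adjusted p = 0.000908). It was also higher in cDC1 than in cDC2 in the spleen, with a log2 fold change of -2.84 (SE 0.30, adjusted p = 3.16e-07) as cDC2 against cDC1. Adam22 was lower in thymic than in splenic cDC2, with a log2 fold change of -3.28 (SE 0.21, adjusted p = 9.02e-10). Mmp13, the rodent interstitial collagenase, was higher in thymic cDC2, at 85.7 ± 15.3 (SD, n = 3) against 14.03 ± 1.92 (SD, n = 3) (adjusted p = 0.0308). With lane 8 libraries only its log2 fold change was 2.74 in place of 2.52 with an adjusted p of 0.253, and with a pseudocount of 0.1 the adjusted p was 0.304. Adamts6 was lower in thymic cDC1, at 22.4 ± 10.1 (SD, n = 4) against 128 ± 42.4 (SD, n = 4) (adjusted p = 0.0396), where the adjusted p was 0.105 without SP1Minus replicate 2 and 0.107 without TH1Minus replicate 3, 0.510 with lane 8 libraries only and 0.231 with a pseudocount of 0.1. Between subsets, 8 higher and 2 lower passed in the spleen, 12 higher and 3 lower in the immature thymic cells and 10 higher and 2 lower in the mature ones, against 16.6%, 16.4% and 18.9% of all genes in either direction. Among these were Adamdec1, a soluble ADAM-like protease, in splenic cDC2 at 134 ± 12.95 (SD, n = 3) against 12.9 ± 9.20 (SD, n = 4) (adjusted p = 0.00882, with lane 8 libraries only a log2 fold change of 4.38 in place of 3.58 and an adjusted p of 0.170, and with a pseudocount of 0.1 an adjusted p of 0.113), and Adam15, at 1168 ± 182 (SD, n = 3) in TH2Minus against 453 ± 69.6 (SD, n = 4) in TH1Minus (adjusted p = 0.00196). For mature against immature cells the share of the 31 genes that passed was 51.6% in cDC1 and 58.1% in cDC2, where 45.7% and 35.6% of all genes passed. The family was listed by nomenclature with earlier results of these data known, so such shares are a description.

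Of 23 genes that activate or control metalloproteases, 18 could be tested. Plat, which encodes tissue plasminogen activator, rose from 5.65 ± 6.47 (SD, n = 4) in immature to 1155 ± 81.7 (SD, n = 3) in mature cDC1 (adjusted p = 1.23e-08). In cDC2 its mean was also higher in mature cells, at 262 ± 100 (SD, n = 3) against 27.97 ± 10.7 (SD, n = 3). Plaur, the urokinase receptor, was 5852 ± 2004 (SD, n = 3) in SP2Minus and 158 ± 48.4 (SD, n = 4) in SP1Minus (adjusted p = 1.19e-05), and fell from 2283 ± 75.8 (SD, n = 3) to 224 ± 145 (SD, n = 3) in maturing thymic cDC2 (adjusted p = 0.000568). Lrp1, a receptor that takes up proteases bound to their inhibitors, fell with maturation, with log2 fold changes of -4.88 (SE 0.72, adjusted p = 7.25e-06) in cDC1 and -3.18 (SE 0.77, adjusted p = 0.00194) in cDC2. Pcsk5, a proprotein convertase, was 259.7 ± 57.2 (SD, n = 4) in SP1Minus, 3.82 ± 3.58 (SD, n = 4) in TH1Minus (adjusted p = 4.33e-08) and listed at 0 in the SP2Minus samples (adjusted p = 6.15e-10). Of the 18 genes, 5 higher and 6 lower passed with maturation in cDC1 and 6 higher and 3 lower in cDC2, with median log2 fold changes of -0.01 and 0.08 against -0.04 and 0.04 over all genes tested. That is 61.1% and 50% of them, against 45.7% and 35.6% of all genes. The list was chosen with earlier results of these data known, so its shares here and below are only a description. Between organs 0 higher and 2 lower passed in cDC1 and 1 higher and 0 lower in cDC2, 11.1% and 5.56%, against 8.77% and 14.2% of all genes. Between subsets the counts were 6 higher and 3 lower in the spleen, 8 higher and 3 lower in immature and 5 higher and 2 lower in mature thymic cells, or 50%, 61.1% and 38.9%, where 16.6%, 16.4% and 18.9% of all genes passed.

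Of 24 membrane proteins known to be shed, 23 could be tested. Jag1, a Notch ligand, rose from 24.96 ± 5.97 (SD, n = 4) in immature to 10747 ± 1129.9 (SD, n = 3) in mature cDC1, a log2 fold change of 8.72 (SE 0.23, adjusted p = 9.29e-17), and from 61.5 ± 7.19 (SD, n = 3) in immature to 2663 ± 273 (SD, n = 3) in mature cDC2, of 5.42 (SE 0.24, adjusted p = 8.95e-13). The Notch ligand Dll4 rose from 37.5 ± 7.69 (SD, n = 3) in immature to 1243 ± 358 (SD, n = 3) in mature cDC2 (adjusted p = 3.3e-07). In cDC1 its mean was also higher in mature cells, at 238 ± 138 (SD, n = 3) against 9.03 ± 5.64 (SD, n = 4). The membrane-bound chemokine Cx3cl1 rose from 41.1 ± 17.3 (SD, n = 4) in immature to 1658 ± 226 (SD, n = 3) in mature cDC1 (adjusted p = 5.26e-11) and was higher in thymic than in splenic cDC2, at 221 ± 7.48 (SD, n = 3) against 14.8 ± 4.22 (SD, n = 3) (adjusted p = 2.81e-07). Cxcl16, likewise a membrane-bound chemokine, was higher in the thymus on the log2 scale by 1.88 (SE 0.18, adjusted p = 2.49e-07) in cDC1 and by 1.84 (SE 0.21, adjusted p = 1.87e-06) in cDC2. Havcr2, which encodes the receptor TIM-3, fell in maturing cDC2 from 10823 ± 893 (SD, n = 3) in TH2Minus to 592 ± 217 (SD, n = 3) in TH2Plus (adjusted p = 7.5e-12). Mature cDC1 were lower too, at 243 ± 62.2 (SD, n = 3) in TH1Plus against 9616 ± 612 (SD, n = 4) in TH1Minus. Of the 23 genes, 10 higher and 9 lower passed with maturation in cDC1 and 8 higher and 7 lower in cDC2, with median log2 fold changes of -0.43 and -0.67 against -0.04 and 0.04 over all genes tested. These were 82.6% and 65.2% of them, against 45.7% and 35.6% of all genes. This list was chosen with earlier results of these data known, so its shares here and below are a description and no enrichment is read from them. Between organs 2 higher and 4 lower passed in cDC1 and 2 higher and 4 lower in cDC2, 26.1% in each, against 8.77% and 14.2% of all genes. Between subsets 11 higher and 1 lower passed in the spleen, 12 higher and 0 lower in immature and 9 higher and 1 lower in mature thymic cells, or 52.2%, 52.2% and 43.5%, where 16.6%, 16.4% and 18.9% of all genes passed. Which protease, if any, cuts these proteins here was not measured.

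The genes with the pattern most like each of the 10 were sought by Pearson correlation of log2 values over the 20 samples and 12361 genes, which share groups and libraries, so r is only a description. Mmp25 was most like Cxcl16 (r = 0.988) and Spsb1 (r = 0.987), Mmp12 like Clec4a1 (r = 0.978) and Wfdc17 (r = 0.962), and Mmp14 like F11r (r = 0.973) and Gm21188 (r = 0.963). Adam8 was most like Trim35 (r = 0.979) and Slc22a18 (r = 0.967), Adam19 like Cd81 (r = 0.954) and Itga3 (r = 0.942), and Adam23 like Scaper (r = 0.970) and Kidins220 (r = 0.969). Timp2 was most like the complement genes C1qc (r = 0.968) and C1qa (r = 0.951). The genes read at low levels had looser matches, with r between 0.799 and 0.873 for Mmp9 (Haus8 and Vegfc), Timp1 (Slc48a1 and Steap3) and Timp3 (4933411K20Rik and Stambp). Within the 10, the highest r was 0.727 between Timp1 and Timp2 and the lowest was -0.808 between Mmp12 and Adam19.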

How the data were processed

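RNA of 21 libraries was analysed, 20 samples in 6 groups after averaging, prepared with a stranded mRNA kit. According to the submitters' notes and methods, adapters were removed with Cutadapt, STAR 2.6 was used for alignment to mm10, HTSeq-count assigned reads to Ensembl genes, and the authors divided the counts by size factors from DESeq2 1.24.0. The Ensembl release and the strand setting are not given in the sources used here. The deposited value is a normalized read count, that is a signal per gene divided by the size factor of the library. Whole reads were recovered from the steps of the values within a tolerance of 0.01 read, with 100% of values whole in each library.

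Groups come from the labels. SP1Minus replicates 4 and 5 shared number, index and lane and differed less than any other pair of the group, so they were averaged. TH1Minus replicates 3 and 4 shared them too, but differed more than any other pair of that group and were kept apart. Their chi-square per degree of freedom was 100.5, against 24.6 to 93.6 for the others. limma 3.58.1 (R 4.3.3) was fitted with trend on log2(value + 1), a scale that understates the change of low genes, over all 6 groups. The fit kept 14970 genes that reached 10 in 3 or more samples, and a gene was called at Benjamini-Hochberg adjusted p below 0.1 and over 2-fold. The alternatives included edgeR 4.0.16 and DESeq2 1.42.0 on recovered reads. The fit was tested on simulated data. Floors of 3 reads cover counting error only.

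The 10 genes and the lists of family members (by nomenclature), regulators, shed substrates and cell markers were chosen with earlier results of these data known. Named beside the 10 are, in each comparison and list, up to 3 called genes with the largest change and a mean of at least 50 in a group, family genes with a mean of at least 500, and the 2 genes most like each of the 10. Reck was named after its values were seen, as the membrane-bound inhibitor. Some listed genes are not reported here by name. Gene positions come from GENCODE M21 (GRCm38, mm10), in which 37607 of 37734 identifiers were found.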

Additional observations from a re-analysis of the deposited data

Results flagged for a closer look

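In 7 of 52 groups of 4 samples, 1 sample lay far from the other 3. Chance gives about 1 in 20 for continuous values. That rate does not hold where the other 3 are at 0, as for Timp1, Mmp2 and Mmp7 below, so no excess is read from the count. Mmp12 reached 92.1 in TH1Minus replicate 1, against 23.2 to 28.3 in the other 3. Timp1 was 7.80 in TH1Minus replicate 3 and 0 in the other 3. Outside the 10 genes, Adam11 was 4098 in SP1Minus replicate 3 against 1441 to 1503 in the others, Adam15 was highest in SP1Minus at 587, Adam9 lowest in TH1Minus at 548, and Mmp2 and Mmp7 reached 2.26 and 4.12 in SP1Minus, both near 0. Adam11 also had tissue differences of opposite sign, with a mean of 1183 in TH1Minus below the 2127 of SP1Minus and 7154 in TH2Minus above the 4455 of SP2Minus. Neither passed the limma test (adjusted p = 0.119 in cDC1 and 0.102 in cDC2), and the difference between these was not tested.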

How the results depend on the processing

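The number of family genes called (41 tested) was 8 for TH1Minus against SP1Minus, 13 for TH2Minus against SP2Minus, 20 for TH1Plus against TH1Minus, 24 for TH2Plus against TH2Minus, 16 for SP2Minus against SP1Minus, 20 for TH2Minus against TH1Minus and 15 for TH2Plus against TH1Plus. It stayed within 1.5 times of that under the other pseudocounts, no filter, TMM scaling, total read scaling, edgeR, DESeq2, a fit of only the groups compared, lane as covariate, all libraries separate and the averaging of TH1Minus replicates 3 and 4. On the recovered reads edgeR called 8, 12, 21, 24, 17, 18 and 15 in this order. Lane 8 libraries alone, which leave 1 SP2Minus and 2 SP1Minus samples, gave 5 and 5 for the organ comparisons. Leaving out 1 sample at a time gave 7 to 8, 9 to 12, 18 to 22, 19 to 23, 14 to 17, 15 to 21 and 8 to 18 in the order above, the last with 9 without TH2Plus replicate 1 and 8 without TH2Plus replicate 2. Over 8 pairs of samples with the same number, the correlation of deviations was above 0.1 in 4 (0.246 to 0.461) and below in the other 4 (-0.150 to 0.0066). Its mean was 0.118, against -0.062 over 16 pairs with different numbers, of which 5 were above 0.1. These values do not settle whether the number marks pairs, and it was not taken as pairing in the main fit. With it as a replicate block, 15 were called in SP2Minus against SP1Minus and 16 in TH2Minus against TH1Minus, and TH2Plus and TH1Plus share too few numbers for such a fit. Total read scaling and the averaging of TH1Minus replicates were chosen after seeing the data. No called difference of the 10 genes turned its sign. Of their log2 fold changes under settings that keep all samples, 33 moved by more than the replicate SD and 725 did not. Among the former was Adam19 in TH2Plus against TH2Minus, at 0.95 with total read scaling in place of 1.25. Mmp9 in that comparison was 0.95 with a pseudocount of 8 in place of 2.13, within its replicate SD. Of 132 called comparisons of the other named genes, 39 lost their call under at least 1 alternative and none turned its sign. Genes under about 10 reads, such as Timp1, are limited by depth.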

Other observations

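Beside the cells named so far, markers of other cell types were read in the same samples. The sum of 6 thymic epithelial markers was 3507 to 3877 in TH2Minus, nearly all of it Epcam at 3516 ± 174 (SD, n = 3), and 3817 to 4878 in TH2Plus, mostly Aire at 3408 ± 586 (SD, n = 3). The 5 T cell markers summed to 423 to 758 in TH1Plus and 396 to 726 in TH2Plus, against 68.3 to 95.5 in TH1Minus and 58.7 to 159 in TH2Minus. The 5 endothelial markers summed to 2156 to 2262 in SP2Minus and 4569 to 5089.7 in TH2Minus, most of it Pecam1 and Kdr. The 4 B cell markers reached 421 to 933 in SP1Minus, almost all from Ms4a1, the 4 NK cell markers 111 to 181 in SP2Minus, and the 4 plasmacytoid markers 1856 to 2294 in SP1Minus and 854 to 1400.2 in SP2Minus. In the thymus the plasmacytoid markers summed to 3811 to 4943 in TH1Minus, 4652 to 5912 in TH2Minus, 3989 to 6971 in TH1Plus and 3374 to 6112 in TH2Plus. The 4 general cDC markers summed to 192141 to 318733 in TH1Minus and 237110.0 to 287228 in TH2Minus, and to 50265 to 102598 in TH1Plus and 72104 to 112748 in TH2Plus. The 5 maturation markers summed to 203975 to 287473 in TH2Plus. Their part in the levels of the 10 genes was not tested.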
